A study of Mus musculus with 32 samples.

Results

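Of 10214 open chromatin peaks listed in DMSO-treated late 1-cell mouse embryos, 3649 (35.7%) had no counterpart at the early 2-cell stage, either in DMSO-treated embryos or in embryos treated with A-485. These peaks, called closing peaks here, were chosen by their absence from both early 2-cell lists: a peak of the late 1-cell DMSO list was a member when not even 1 base overlapped a peak of the early 2-cell DMSO list (27693 peaks) or of the early 2-cell A-485 list (13712 peaks). Another 4637 peaks of the late 1-cell DMSO list overlapped an early 2-cell DMSO peak and are called kept peaks, and the remaining 1928 overlapped an early 2-cell A-485 peak only. Absence from a list means that no peak passed the authors' threshold there, which is not a measurement of signal, and the count of 3649 follows from the rule and was not tested.

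Open chromatin was measured by ATAC-seq, in which a transposase cuts accessible DNA, and total RNA was sequenced at the zygote stage and at both 2-cell stages, early and late. Embryos were wild type and made by in vitro fertilization with oocytes and sperm of B6D2F1/J mice 6 to 8 weeks old. A-485, an inhibitor of the histone acetyltransferases CBP and p300, was given at 10 µM from 4 to 20 h after fertilization, with DMSO as the control. Late 2-cell A-485 embryos were thus sampled after the inhibitor had been removed. In a separate RNA experiment embryos received 50 nM TSA, an inhibitor of histone deacetylases, from 8 to 28 h, with DMSO controls of their own, and each group, ATAC-seq or RNA, held 2 libraries. RNA libraries held 13206163 to 32585987 expected counts, all 10 zygote and oocyte markers stood at 1 FPKM or more in every group, and the 6 markers of the 2-cell stage summed to 358 to 420 FPKM in early 2-cell DMSO embryos against 10.2 to 12.8 FPKM with A-485.

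The late 1-cell embryo carries a maternal and a paternal pronucleus whose chromatin has just been rebuilt from that of sperm and oocyte, and transcription at this stage, called minor zygotic genome activation (ZGA), is weak and widespread. Open sites at promoters are usually rich in CpG dinucleotides, whereas open sites far from genes are often regulatory elements used at particular times. CBP and p300 deposit H3K27ac, a histone mark of active sites, at both kinds of site.

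The sequences under the strongest members show both kinds. The first 3 below are the promoter peaks of highest fold over background and the last 3 are the distal ones, read from the plus strand of GRCm38 (mm10) in the 200 bases around the summit and cut back where an untranslated exon was annotated. Capitals mark matches, on either strand, to any of 14 short motifs. Matches occur here for the GC box of Sp1 (GGGCGG), for the NF-Y box (CCAAT), for the core site of ETS factors (CCGGAAG), and for the single site of nuclear receptors (AGGTCA). They also occur for a part of the Ctcf motif (AGGGGGC), for the site of Zeb1 and Snai proteins (CAGGTG), and for that of bicoid-type homeodomain proteins such as the Obox family (GGATTA). The other motifs searched were those of Klf proteins (CCCACCC), of Nr5a2 (CAAGGTCA, which contains the nuclear receptor site), of Nrf1 (GCATGCGC), of Yy1 (AAGATGGC), the E-box (CACGTG), the cAMP response element (TGACGTCA) and the TATA box (TATAAA). A match describes letters only and is not a measurement of binding.
Efl1 promoter peak, chr7:82648529-82648613: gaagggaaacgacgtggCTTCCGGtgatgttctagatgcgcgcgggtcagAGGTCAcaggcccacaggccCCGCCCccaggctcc
Zfp287 promoter peak, chr11:62731886-62732067: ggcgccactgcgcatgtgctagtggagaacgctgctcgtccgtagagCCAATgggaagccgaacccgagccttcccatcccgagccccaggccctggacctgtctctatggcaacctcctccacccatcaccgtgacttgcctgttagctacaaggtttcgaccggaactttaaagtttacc
Itgbl1 promoter peak, chr14:123661201-123661400: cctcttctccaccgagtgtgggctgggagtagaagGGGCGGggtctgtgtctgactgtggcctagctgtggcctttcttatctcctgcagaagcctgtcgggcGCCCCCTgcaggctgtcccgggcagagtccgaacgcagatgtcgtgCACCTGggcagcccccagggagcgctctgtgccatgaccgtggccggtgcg
Distal peak nearest Gm48946, chr15:60686808-60687007: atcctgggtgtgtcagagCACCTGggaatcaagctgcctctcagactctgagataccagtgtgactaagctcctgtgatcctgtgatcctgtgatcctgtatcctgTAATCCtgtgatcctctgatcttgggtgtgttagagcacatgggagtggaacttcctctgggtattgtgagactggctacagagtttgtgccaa
Distal peak nearest AC158605.1, chr10:82202494-82202693: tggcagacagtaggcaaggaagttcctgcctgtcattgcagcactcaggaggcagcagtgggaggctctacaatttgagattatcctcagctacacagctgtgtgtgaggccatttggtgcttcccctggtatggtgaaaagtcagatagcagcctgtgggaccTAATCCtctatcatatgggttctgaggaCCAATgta
Distal peak nearest Gm2018, chr11:89348402-89348601: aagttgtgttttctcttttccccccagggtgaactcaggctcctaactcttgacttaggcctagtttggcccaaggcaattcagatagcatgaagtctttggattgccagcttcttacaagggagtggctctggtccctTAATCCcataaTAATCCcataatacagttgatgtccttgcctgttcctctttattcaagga
The 200-base window of the Efl1 peak held 19 CpG dinucleotides, that of Zfp287 15 and that of Itgbl1 12. None of the 3 distal windows held a CpG. All 3 promoter peaks were also listed in late 1-cell A-485 embryos, and none of the 3 distal peaks was.

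Closing peaks lay mainly away from start sites. Of the 3649, 2587 (70.9%, Wilson 95% interval 69.4 to 72.3%) were distal, meaning over 2.5 kb from any annotated start site, 766 (Wilson 95% interval 19.7 to 22.3%) were within 1 kb of a start site and are called promoter peaks and 296 (8.11%) lay between. Kept peaks had the opposite layout, with 81.0% at promoters and 16.6% distal, and peaks found at the early 2-cell stage with A-485 only were intermediate at 59.7% and 36.0%. The closing share was 63.8% of distal late 1-cell peaks, 60.8% of those in between and 13.5% of promoter peaks. A peak of the closing set covered a start site in 11.9% of cases, against 74.5% of kept peaks. The summit was intergenic in 54.9%, intronic in 36.9%, in a coding exon in 1.51% and in a 5′ UTR exon in 2.44% of closing peaks, and in kept peaks these shares were 54.9%, 20.2%, 1.38% and 16.7%. The median distance to a start site was 8198 bp over all members and 14490 bp over distal ones, and 376 members (10.3%) were over 50 kb away. Because these intervals count peaks of 1 list per group, they hold no replicate error.

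**Figure D1:**
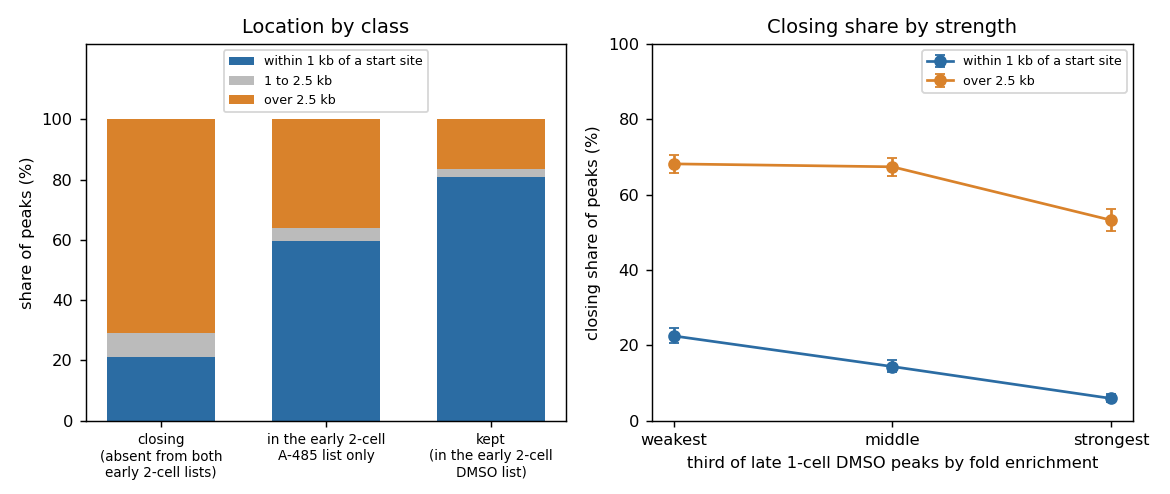
Left, share of peaks (%) by distance to the nearest start site for closing peaks (n = 3649), peaks in the early 2-cell A-485 list only (n = 1928) and kept peaks (n = 4637). Right, share of late 1-cell DMSO peaks that were closing, by tertile of fold over background, for promoter and distal peaks, with Wilson 95% intervals. Distal peaks make up 70.9% of closing peaks and 16.6% of kept peaks, and the closing share falls with strength in both locations.

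Over the autosomes and X the share of late 1-cell peaks that were members was between 29.8% (chromosome 11) and 43.5% (chromosome 12). Members were scattered: the median distance from a member to the next was 145386 bp, and 134 (3.67%) had another within 1000 bp. Their nearest genes numbered 3304, of which 2994 had 1 closing peak and 1799 were protein-coding. The genes nearest to most members had 4 each, none within 1 kb of a start site. They were Ostm1, which encodes a protein needed by osteoclasts, and the non-coding or pseudogene loci Rps18-ps2, Gm26289, Gm25880 and 9430078K24Rik. Around Ostm1 the 4 members had folds of 4.53 to 9.29, and 4 early 2-cell DMSO peaks also had Ostm1 as nearest gene. The other 4 loci were nearest to 0 early 2-cell DMSO peaks.

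Most members were far from any early 2-cell peak. The median gap to the nearest early 2-cell peak was 31855 bp for the DMSO list, 39729 bp for the A-485 list and 18068 bp for whichever was nearer, and 130 members (3.56%) had an early 2-cell peak within 500 bp. At the edge of the rule, the members with the smallest gaps were 7 bp (Gm15612, fold 2.98) and 8 bp (Fam221a, fold 5.40) from an early 2-cell peak. Just outside it, peaks near Mir7655 (fold 6.86) and Tmed6 (fold 2.61) overlapped an early 2-cell peak by 3 bases.

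Closing peaks were weaker and shorter than kept ones in the late 1-cell DMSO list that chose them. The median fold over background was 6.51 (lowest 1.81, highest 14.6) for members, 6.82 for peaks found with A-485 only and 7.30 for kept peaks, of which 10% exceeded 10.3. Median lengths were 363 bp and 578 bp for closing and kept peaks. Among promoter peaks, closing members made up 22.5%, 14.4% and 5.90% of the weakest, middle and strongest tertile of fold. For distal peaks the shares were 68.2%, 67.4% and 53.2%, so in the strongest tertile too most distal peaks were members. Within closing peaks, distal members were no weaker than promoter members, with median folds of 6.65 and 6.23.

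The strongest promoter members lay at genes of unlike functions. The Efl1 peak (chr7:82648253-82648762, fold 13.1) covered the start of a GTPase gene of ribosome maturation, and its summit lay 23 bp upstream of that start. Zfp287 (fold 12.5) and Zfp763 (fold 11.2) encode zinc finger proteins. Itgbl1 (fold 12.4) encodes a secreted integrin beta-like protein, Tmc3 (12.2) a transmembrane channel-like protein, Morn2 (12.1) a MORN repeat protein, and Snx32 (11.2) a sorting nexin. The processed pseudogenes Gm5989 (fold 12.0) and Gm5301 (11.2) lie near each other on chromosome 6. Aldh1a1 (10.8, tied with a peak at Cacng2), a retinaldehyde dehydrogenase gene, was the only 1 of these 10 genes without a peak in the late 1-cell A-485 list.

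Among members, distal ones reached the highest folds. Those of 14.6, 14.5, 13.4 and 13.2 were nearest to Gm48946, AC158605.1, Gm2018 and Gm19272, and lay 16174 to 45556 bp from the start sites. One of fold 12.8 (chr6:4544612-4545029) lay 7123 bp from Col1a2, a collagen gene. The next were nearest to Slc41a2, a magnesium transporter gene (fold 12.7, intronic), Gm5446 (12.6), Gm13794 (12.4), Xkr6 (12.4, intronic) and Cdk17, a kinase gene (12.2). Of these 10, the peaks nearest to Col1a2, Gm13794 and Cdk17 were also in the late 1-cell A-485 list.

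The late 1-cell A-485 list was not used by the rule, and it held few of the members. Both classes were however set by whether a peak recurred in other lists. A peak near the calling threshold can be missed in any list, so the shares below are not independent of the rule. The part of this in them was not tested. Of the 3649 closing peaks, 543 (14.9%, 13.8 to 16.1%) overlapped a peak of the 7094 listed in A-485-treated late 1-cell embryos, whereas 75.1% of kept peaks, 49.6% of peaks found at the early 2-cell stage with A-485 only, and 48.8% of all late 1-cell DMSO peaks did. For the other 3106 members there was no listed late 1-cell peak under A-485 that could close. The paper compared ATAC-seq signal and reports that late 1-cell accessibility was mostly unchanged by the inhibitor. Absence from the late 1-cell A-485 list is thus not a measured loss of signal. The description as closing regardless of A-485 therefore applies in both arms to 543 members only. With 1 list per group and no replicate values, no test of these shares against replicate error was possible.

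The share present with A-485 was higher among stronger peaks, and members stayed below kept peaks in each tertile of fold. In the late 1-cell A-485 list were 169 of 1535 members of the weakest tertile, 13.4% of the middle and 25.4% of the strongest, against 57.2%, 72.1% and 88.4% of kept peaks. By location, 23.1% of promoter members and 12.9% of distal members were present with A-485. In the strongest tertile the shares were 35.1% for promoter members and 92.7% for kept promoter peaks, and 22.9% and 62.7% for distal ones. The 543 members present in both late 1-cell lists had a median fold of 7.04 with DMSO and 6.61 with A-485, and 222 of them (40.9%) had the higher fold with A-485. The 3106 absent members had a median fold of 6.45 with DMSO.

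**Figure D2:**
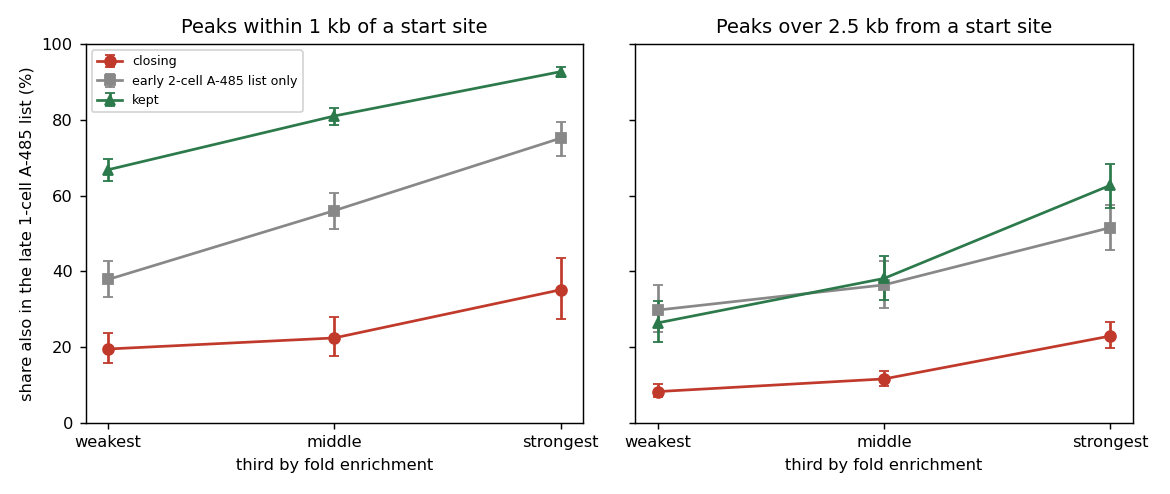
Share (%) of late 1-cell DMSO peaks that were also in the late 1-cell A-485 list, by tertile of fold over background, for promoter peaks (left) and distal peaks (right), with Wilson 95% intervals. Closing peaks lie below kept peaks in every tertile, from 19.5% against 66.8% to 35.1% against 92.7% at promoters and from 8.24% against 26.4% to 22.9% against 62.7% at distal sites.

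The same reading can be made from the A-485 side. Of the 7094 late 1-cell A-485 peaks, 1378 (19.4%) were in neither early 2-cell list, a smaller share than the 35.7% of the DMSO list. Among the 2130 that had no late 1-cell DMSO counterpart, 836 (39.2%) were in neither, and among the 4964 with one, 542 (10.9%) were.

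Closing peaks differed from kept peaks in base composition, which the rule did not use. The 200 bases around the summit had a median GC content of 53.0% in members and 63.0% in kept peaks, and a median observed over expected CpG ratio of 0.227 and 0.755. Windows that were CpG-rich (GC above 50% and ratio above 0.6) made up 8.88% of members and 69.4% of kept peaks. Among promoter peaks alone, 30.5% of members and 82.4% of kept ones were CpG-rich, with median ratios of 0.412 and 0.805. Promoter members more often lay beside a start site. The upper quartile of the distance to it was 346 bp for promoter members and 0 bp for kept promoter peaks. The part of this in the ratios was not tested. At distal sites the medians were 0.198 and 0.311. Promoter members that were also in the late 1-cell A-485 list had a median ratio of 0.586 (n = 177), and the other 589 had 0.373.

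Distal members held fewer repeats than the distal sites newly open in the early 2-cell DMSO list (15961 peaks with no late 1-cell DMSO overlap). Repeat-masked bases took a median of 10.0% of the window in distal members and 57.0% in newly open distal peaks. The median was 11.5% in kept distal peaks and 9.5% in all distal late 1-cell DMSO peaks, so low repeat content was not particular to members. At least 50% of the window was masked in 12.8% of distal members, 21.3% of kept distal peaks and 62.5% of newly open distal peaks. The homeodomain site GGATTA, found above in all 3 distal windows, occurred in 13.7% of distal members, 28.5% of kept distal peaks and 74.4% of newly open distal peaks. In RefSeq promoter windows of the same length (n = 32817) it occurred in 4.44%. The GC box GGGCGG was in 33.3% of promoter members, 70.3% of kept promoter peaks, 32.1% of RefSeq promoters and 10.5% of distal members. CAGGTG occurred in 26.4% of promoter members and 11.3% of kept promoter peaks, and in 13.8% of RefSeq promoters. CCAAT was in 29.6% of promoter members, 51.1% of kept ones and 28.5% of RefSeq promoters. RefSeq windows were taken around start sites, whereas promoter members often lay beside one. Motif letters also overlap with base composition. The part of location and of base composition in these shares was not tested.

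**Figure D3:**
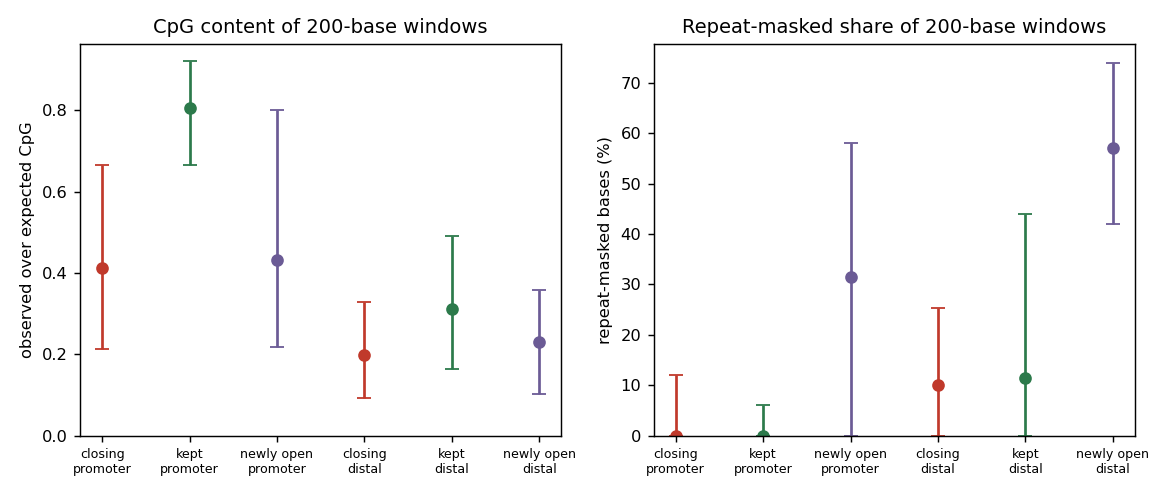
Observed over expected CpG ratio (left) and repeat-masked bases in % (right) of the 200 bases around the summit, for closing, kept and newly open (early 2-cell DMSO) peaks at promoters and distal sites. Points are medians over peaks and bars run from the 25th to the 75th percentile. Closing promoters have a median ratio of 0.412 against 0.805 for kept promoters, and newly open distal peaks a masked median of 57.0% against 10.0% for closing distal peaks. Kept distal peaks have a masked median of 11.5%.

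The 766 promoter members lay within 1 kb of start sites of 860 genes, of which 858 had RNA values and 594 were protein-coding. Of the 858, 649 (75.6%) had no early 2-cell peak within 1 kb of any of their start sites, so 209 still had one at the same or another start site. The median level of the 858 genes was 0.31 FPKM in DMSO zygotes (0.295 and 0.30 in the 2 libraries), against 7.02 FPKM (7.09 and 6.92) for the 4855 genes with a kept promoter peak and no closing one. Among protein-coding genes, 45.8% of the 594 with a closing peak, 17.2% of the 4064 with a kept peak and 65.7% of the 16155 with no late 1-cell peak stood below 1 FPKM. The median of the 858 genes was 0.465 FPKM in early 2-cell DMSO and 0.425 FPKM in late 2-cell DMSO embryos. It was 0.903 FPKM in late 2-cell A-485 embryos and 1.36 FPKM with TSA, against 0.413 FPKM in the TSA controls. Only the genes with at least 10 counts in a comparison could be tested, 542 to 649 of the 858, so the counts that follow describe those genes and not all members. A gene was called at an adjusted p under 0.05 with at least a 2-fold change and 1 FPKM in the higher group. Promoter peaks of gene pairs that share a start region count for both genes, and, in these bulk libraries, fewer cells of a kind and less RNA per cell cannot be told apart. In comparisons between stages, stage and library preparation cannot be told apart either.

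From zygote to early 2-cell with DMSO, 584 genes with a closing promoter peak were tested. By edgeR's quasi-likelihood test 53 rose (9.08%) and 110 fell (18.8%), beside 11.2% and 14.9% of all 20106 genes tested, and 13.1% and 20.7% of genes with a kept peak. The median log2 fold change was -0.11 for these genes and 0.08 over all genes. Among the genes with no early 2-cell peak at any start site, 35 of 403 rose and 70 fell.

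Genes with large changes were picked for naming only if they had a mean of at least 5 FPKM in the higher group, no overlap between the groups and no early 2-cell peak within 1 kb of a start site. Among those, the largest fall was in Thumpd1, an adaptor of tRNA acetylation, which stood at 48.3 and 55.1 FPKM in zygotes and at 4.98 and 5.71 FPKM in early 2-cell embryos, a log2 change of -3.18 ± 0.13 (SE, adjusted p = 5.1e-10 by edgeR). Eftud2, a GTPase of the spliceosome, was at 59.6 and 52.4 FPKM and then at 8.23 and 9.67 FPKM (log2 change -3.03 ± 0.14). In both genes the stages did not overlap, as the limits for naming required. The lincRNA Gm42980 was at 84.4 and 93.3 FPKM before and 12.2 and 16.0 FPKM after, Zfp653 at 17.9 and 17.5 before and 3.22 and 2.41 after, and Cd99l2, a membrane protein gene, at 6.61 and 5.14 before and 0.79 and 1.43 after. Efl1, with the strongest promoter member, was among the genes that fell, from 19.6 and 20.1 FPKM to 3.91 and 5.65 FPKM (log2 change -2.21 ± 0.14, adjusted p = 2.2e-08 by edgeR).

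Among genes within the same limits, the largest rises at this step were in genes near or under 1 FPKM in the zygote. Zfp707, a zinc finger gene, was at 0.72 and 0.56 FPKM in zygotes and at 14.1 and 11.5 FPKM in early 2-cell embryos (log2 change 4.54 ± 0.28, adjusted p = 2.5e-08 by edgeR). Ldha, a subunit of lactate dehydrogenase, went from 0.41 and 0.30 FPKM to 5.86 and 10.6 FPKM. The replication-dependent histone genes Hist1h2bl (0.22 and 1.50 FPKM, then 10.2 and 11.6 FPKM) and Hist1h2bb (1.01 and 0.49 FPKM, then 8.45 and 8.87 FPKM) rose, and all 6 histone genes with a closing promoter peak were called higher, beside 65.7% of all 67 histone genes of the list and 11.2% of all genes. The histone genes include close copies whose reads may be shared, and a peak near Hist1h2bb also served Hist1h3c. The processed pseudogene Gm4782 was called with 0.56 and 0 FPKM in zygotes and 16.6 and 0.64 FPKM in early 2-cell embryos, and without the first early 2-cell library its log2 change was 1.29 in place of 5.03 and the call was lost, as it was with DESeq2.

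From early to late 2-cell with DMSO, 60 of 583 tested genes with a closing promoter peak rose (10.3%) and 53 fell (9.09%). Over all 20326 genes tested 15.9% rose and 8.92% fell, and of genes with a kept promoter peak 28.0% rose and 7.66% fell. The median log2 fold change was -0.32 for genes with a closing peak and -0.02 over all genes. Of genes with no late 1-cell DMSO promoter peak 12.9% rose and 8.99% fell, with a median of -0.095.

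Within the limits for naming, the largest rise was in Klhl7, an adaptor of a ubiquitin ligase, at 0.91 and 1.45 FPKM early and 17.3 and 15.7 FPKM late (log2 change 4.30 ± 0.28, adjusted p = 2.7e-07 by edgeR). Golga1, a Golgi protein gene, was at 1.71 and 0.59 FPKM early and 6.08 and 8.01 FPKM late (log2 change 3.68 ± 0.32). Genes were ranked by the log2 change fitted to counts, which can differ from the ratio of FPKM. Eif3g, a subunit of a translation initiation factor, went from 7.62 and 4.18 FPKM to 64.5 and 60.8 FPKM. Stmn3, a stathmin gene of microtubule regulation, went from 2.92 and 2.71 FPKM to 27.9 and 32.3 FPKM, and Mrps6, a mitochondrial ribosomal protein gene, from 3.25 and 3.85 to 32.3 and 30.2 FPKM. None of these groups overlapped, again because the limits for naming required it. Dph6, a gene of diphthamide synthesis, fell from 124 and 138 FPKM to 10.6 and 11.2 FPKM (log2 change -3.45 ± 0.19). Other falls were in Rtl8a, a gene of retrotransposon origin, from 14.0 and 14.0 FPKM to 1.70 and 1.51 FPKM, and in Fam217a, Magea10 and Stambp, a deubiquitinase gene, which stood at 5.58 to 8.47 FPKM early and 0.82 to 1.80 FPKM late.

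In zygotes treated with A-485, none of 542 tested genes with a closing promoter peak was called in either direction by edgeR, and none by DESeq2. Over all 18258 genes tested 0.00548% were called higher and 0.0657% lower. At an unadjusted p under 0.05, 42 of the 542 (7.75%) passed by edgeR, 13 higher and 29 lower, and 24 by DESeq2, beside 5.88% and 3.76% of all genes. Leaving out the second A-485 library gave 2 calls, both lower.

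At the early 2-cell stage few of these genes were called with A-485, nearly all lower. Of 588 tested, 27 (4.59%) were called lower and 1 higher (0.170%) by edgeR, beside 7.90% and 0.402% of all 20872 genes and 10.5% and 0.386% of genes with a kept promoter peak. For genes with no late 1-cell DMSO promoter peak the shares were 7.56% and 0.415%. Among the 402 with no early 2-cell peak near a start site, 14 were called lower and 0 higher, also by DESeq2, with 26 of these genes higher and 38 lower at an unadjusted p under 0.05 by edgeR, and 25 and 30 by DESeq2. Those genes were 15.9% of the 402 by edgeR and 13.7% by DESeq2, beside 23.3% and 21.2% of all genes. The 4 of them that met the level set for naming were all lower. Zfp707 stood at 14.1 and 11.5 FPKM with DMSO and at 0.64 and 0.15 FPKM with A-485 (log2 change -4.64 ± 0.41, adjusted p = 6.4e-06 by edgeR). Ldha was at 5.86 and 10.6 FPKM with DMSO and 2.14 and 0.71 FPKM with A-485. The pseudogene Gm5301 was at 17.2 and 19.7 FPKM with DMSO and 4.25 and 3.22 FPKM with A-485, and Gm5989 at 14.6 and 17.6 FPKM with DMSO and 4.81 and 5.73 FPKM with A-485. These pseudogenes may share reads with one another. For all 4, a late 1-cell A-485 peak overlapped the closing peak in treated embryos.

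At the late 2-cell stage, after the end of A-485 treatment, many more were changed. The paper reports that global H3K27ac had returned to the control level once A-485 was washed off, so values with A-485 here follow earlier treatment. Of 625 tested genes with a closing promoter peak, 63 were higher (10.1%) and 80 lower (12.8%) by edgeR, beside 10.5% and 16.8% of all 22822 genes. For kept promoter peaks the shares were 8.57% and 31.3%. The median log2 fold change was 0.35 for genes with a closing peak, 0.28 over all genes and -0.37 for genes with a kept peak. Of genes with no late 1-cell DMSO promoter peak 10.6% were higher and 13.4% lower, with a median of 0.47. Scaled to total counts the split was 77 higher and 71 lower, and the median over all genes 0.47.

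The largest decrease within those limits was in Stmn3, at 27.9 and 32.3 FPKM with DMSO and 0.08 and 0.07 FPKM with A-485 (log2 change -8.67 ± 0.47, adjusted p = 4.8e-08 by edgeR). Zfp707 was again lower, at 93.5 and 103 FPKM with DMSO and 2.17 and 2.71 FPKM with A-485. Eif3g was at 64.5 and 60.8 FPKM with DMSO and 3.31 and 6.04 FPKM with A-485. Eme1, a subunit of a DNA repair endonuclease, was at 15.9 and 15.9 FPKM and 4.31 and 3.18 FPKM (log2 change of counts -3.87 ± 0.33). The pseudogene Gm7993 was at 15.7 and 11.7 FPKM and 0.50 and 0.13 FPKM. Stmn3 and Eif3g were also among the genes that rose most from early to late 2-cell with DMSO. Both comparisons used the same late 2-cell DMSO libraries, so these results are not independent. Likewise the zygote to early 2-cell and early 2-cell A-485 comparisons share the early 2-cell DMSO libraries. Higher with A-485 were Irx1, a homeobox gene of patterning (0.14 and 0.07 FPKM with DMSO, 7.91 and 4.61 FPKM with A-485, log2 change 5.32 ± 0.79), Trpm4, a cation channel gene (0.76 and 0.62 FPKM, 5.40 and 6.19 FPKM), and Zfp105 (2.05 and 0.66 FPKM, 8.29 and 6.45 FPKM). AC142100.3, an uncharacterised transcript, was at 3.52 and 3.25 FPKM with DMSO and 16.1 and 16.8 FPKM with A-485. The pseudogene Gm11889 was at 0.79 and 0.19 FPKM and 3.82 and 8.94 FPKM, and without the second A-485 library it was no longer called.

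With TSA at the late 2-cell stage more of these genes were called higher than lower. Of 649 tested genes with a closing promoter peak, 129 were higher (19.9%) and 71 lower (10.9%) by edgeR, beside 13.8% and 13.9% of all 23429 genes and 10.7% and 25.6% of genes with a kept peak. For genes with no late 1-cell DMSO promoter peak the shares were 13.6% and 11.2%. Scaled to total counts the split was 158 higher and 45 lower, and the median log2 fold change of all genes moved from 0.13 to 0.48, so directions here are relative to the bulk of genes. In the genes with no early 2-cell peak near a start site 93 of 456 were higher and 38 lower. No test of the difference between gene classes was made.

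Within the limits for naming, the largest rise was in Irf4, an immune transcription factor gene, which stood at 0.14 and 0.15 FPKM in the controls and 17.9 and 18.7 FPKM with TSA (log2 change 6.60 ± 0.18, adjusted p = 2.8e-09 by edgeR). Il4ra, a cytokine receptor gene, was at 0.05 and 0.14 FPKM and then at 8.06 and 8.29 FPKM, and Cd274, which encodes the checkpoint ligand PD-L1, at 0.14 and 0.11 FPKM and then at 7.21 and 7.29 FPKM. Aldh1a1 was at 0.14 and 0.10 FPKM in the controls and 10.7 and 6.22 FPKM with TSA, and Dapl1 at 0.45 and 0 FPKM and 12.1 and 16.5 FPKM. The strongest promoter member outside the late 1-cell A-485 list lay at Aldh1a1. Among the genes lowered by TSA were Stmn3 (32.4 and 29.0 FPKM, then 0.55 and 0.98 FPKM), Isg20l2, an exonuclease gene (38.3 and 30.7 FPKM, then 4.03 and 4.26 FPKM), Taf5l, a transcription cofactor gene (19.9 and 19.3 FPKM, then 3.00 and 2.85 FPKM), Klhl7 (11.2 and 12.8 FPKM, then 1.38 and 2.65 FPKM) and Gm7993 (7.44 and 13.7 FPKM, then 1.77 and 1.38 FPKM). The controls and the TSA libraries did not overlap in any of these, which the limits for naming required.

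**Figure D4:**
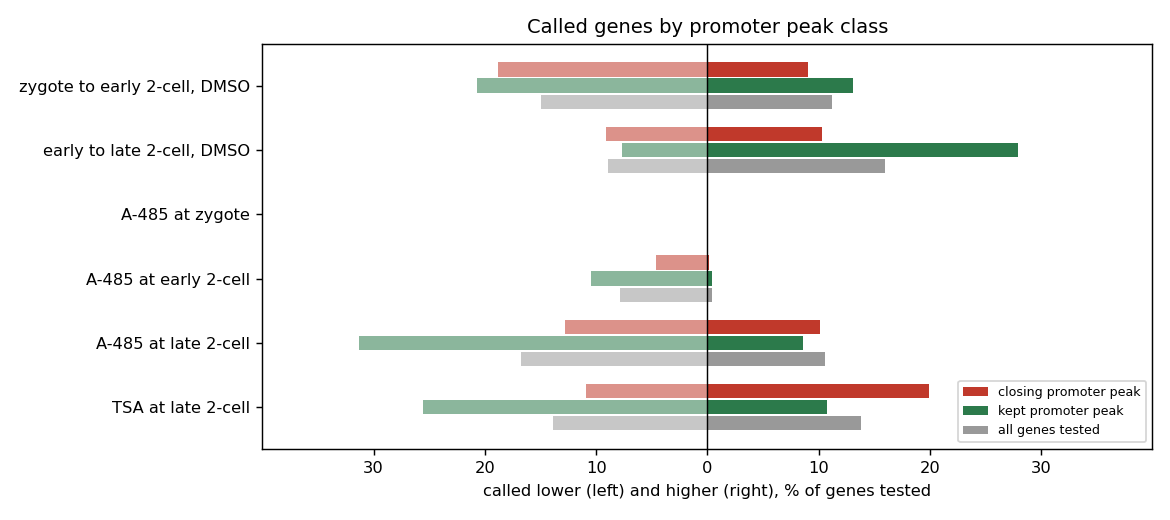
Genes called higher (right) and lower (left), in % of the genes tested, in each of 6 RNA comparisons, for genes with a closing promoter peak, genes with a kept promoter peak and all genes tested. With A-485 at the early 2-cell stage 4.59% of closing, 10.5% of kept and 7.90% of all genes were called lower, and with TSA 19.9% of closing and 13.8% of all genes were called higher. Bars for A-485 in zygotes are too short to see.

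**Figure D5:**
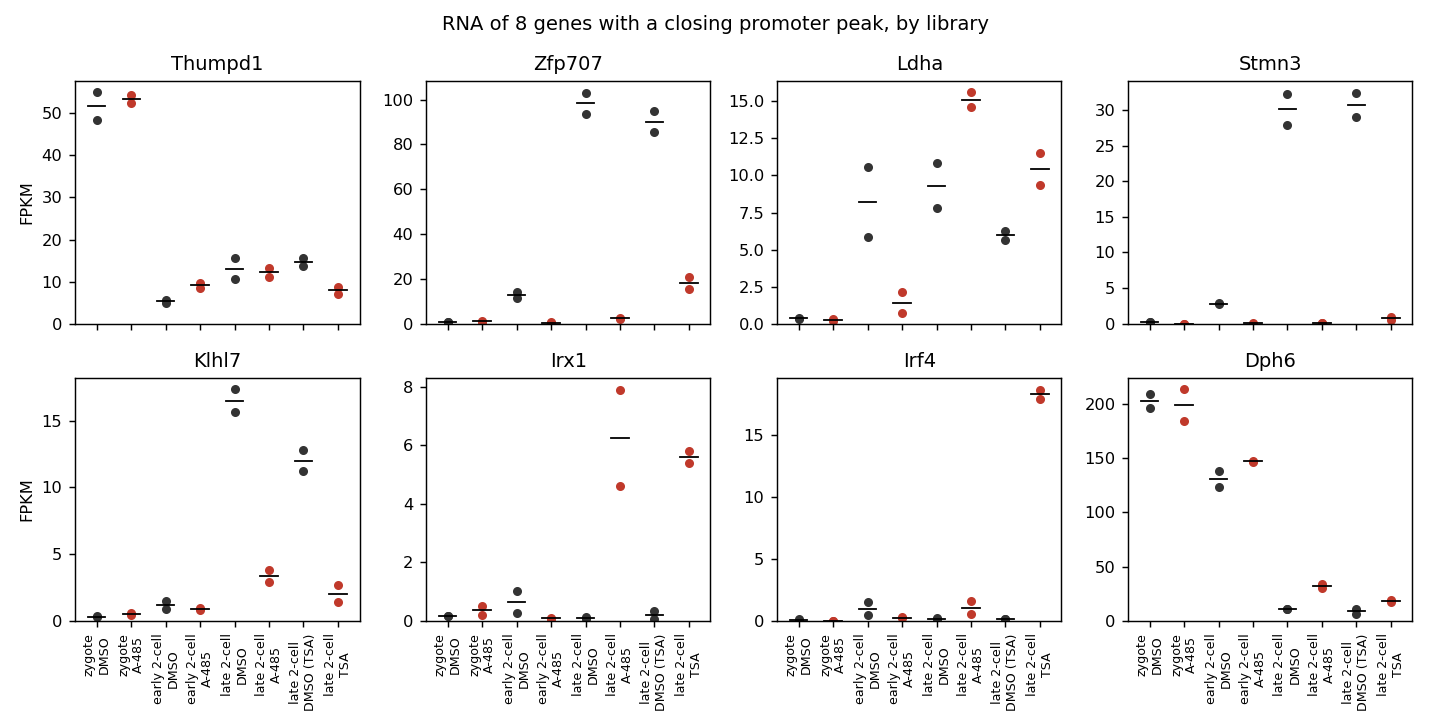
FPKM of 8 named genes with a closing promoter peak in each of the 16 RNA libraries, with points for libraries, bars for group means and inhibitor-treated groups in red, each panel on its own linear scale. Thumpd1 and Dph6 are highest in zygotes, Zfp707, Stmn3 and Klhl7 in late 2-cell DMSO embryos, and Irf4 is above 2 FPKM with TSA only.

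Markers of other cell types moved in some of these comparisons, and their part in the results was not tested. In late 2-cell A-485 libraries the 5 fibroblast markers summed to 14.2 to 16.2 FPKM, against 0.13 to 0.64 FPKM with DMSO. Only 1 of the 5, Pdgfra (13.9 and 15.9 FPKM), reached 1 FPKM, and Col1a2, Dcn and Lum were listed at 0. With TSA the 5 erythroid markers summed to 44.6 to 46.8 FPKM, against 0.78 to 1.36 FPKM in the controls, 3 of 5 reached 1 FPKM, and Hbb-bs and Hbb-bt were listed at 0. The fibroblast markers summed to 5.49 to 8.07 FPKM with TSA and 0.38 to 1.73 FPKM in its controls, and 2 of 5 reached 1 FPKM with TSA, Pdgfra (5.43 and 3.63 FPKM) and Col1a1 (2.63 and 1.74 FPKM). The cumulus list summed to 0.90 to 6.64 FPKM over all groups and the sperm list to 1.25 to 18.9 FPKM. The highest sperm sums, 15.3 to 18.9 FPKM, were in DMSO zygotes, where Prm2 alone stood at 15.0 and 18.8 FPKM. In the same zygotes the cumulus list summed to 5.07 to 5.52 FPKM, with Cyp19a1 at 4.56 and 5.02 FPKM.

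Few genes of the lists examined had a closing promoter peak. Of all 21897 protein-coding genes 594 (2.71%) had a closing promoter peak. Of 170 developmental transcription factors (families such as Hox, Sox, Gata, Pax, Tbx, Nkx and Irx) 5 had one (2.94%), of 394 Zfp genes 15 (3.81%), of 67 replication-dependent histone genes 6 (8.96%), of 80 ribosomal protein genes 1 (Rpl32), and of 52 Wnt, Bmp and Fgf ligand genes 1 (Fgf13). Kept peaks were at 24.4% of Zfp genes, 32.8% of histone genes and 42.5% of ribosomal protein genes, beside 18.8% of all protein-coding genes. Many listed genes had no late 1-cell DMSO promoter peak at all. Of the 5742 protein-coding genes with such a peak, 10.3% had a closing one. The share was 5 of 15 for developmental factors, 10.3% of 146 Zfp genes, 20.0% of 30 histone genes and 2.78% of 36 ribosomal protein genes. Of 20 maternal-effect and oocyte genes only Figla, a transcription factor gene of the oocyte, had a closing promoter peak, and of 20 chromatin genes only Dnmt3a, a DNA methyltransferase gene. Figla fell from 12.4 and 11.4 FPKM in zygotes to 1.98 and 3.07 FPKM in early 2-cell embryos. Dnmt3a fell from 72.9 and 78.4 FPKM to 25.3 and 26.6 FPKM, and both falls were called by edgeR. At this step 13 of 20 maternal-effect and oocyte genes and 5 of 20 chromatin genes were called lower, beside 14.9% of all genes. Dnmt3a still had an early 2-cell peak within 1 kb of a start site, and Figla did not.

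Among the developmental factors the named genes were Hoxd1, Nkx3-2, Irx2 and Irx1. Of the 5 genes tested, these 4 were higher with TSA, beside 52.6% of the 156 developmental factors tested, 19.9% of all genes with a closing promoter peak and 13.8% of all genes. Hoxd1 was at 0.51 and 0.85 FPKM in the controls and 9.91 and 7.77 FPKM with TSA, and Irx2 at 1.64 and 2.28 FPKM and 20.8 and 21.2 FPKM. Irx1 stood at 0.34 and 0.07 FPKM and 5.82 and 5.39 FPKM, and Nkx3-2, listed at 0 in both controls, at 2.91 and 1.70 FPKM. None of these 4 promoter peaks was in the late 1-cell A-485 list. Fgf13 (peak fold 10.1) was the only ligand gene, at 0 and 0.07 FPKM with DMSO and 2.34 and 1.03 FPKM with A-485 in late 2-cell embryos.

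The study drew its minor ZGA lists from embryos treated with DRB, a transcription inhibitor, against DMSO controls, and no DRB library was used here. Of the 557 early 2-cell minor ZGA genes matched to the RNA files by identifier, 10 had a closing promoter peak (1.80%) and 108 a kept one (19.4%), and of the 30 zygote minor ZGA genes matched, 0 and 6. Of the 132 early 2-cell minor ZGA genes with any late 1-cell DMSO promoter peak, the 10 made up 7.58%. From zygote to early 2-cell 9 of these 10 rose, beside 87.3% of all 557 and 11.2% of all genes tested. With A-485 at the early 2-cell stage 6 of 10 fell, beside 78.4% of the 556 tested and 7.90% of all genes. Of those named, the levels of Gm5989 and Gm5301 are given above, and Gm12430 stood at 1.76 and 4.04 FPKM in early 2-cell DMSO embryos. Hist1h3c was at 1.73 and 0.51 FPKM in zygotes, at 11.1 and 9.43 FPKM in early 2-cell DMSO embryos and at 9.78 and 8.30 FPKM with A-485. Of 1907 Polycomb targets of the study matched by identifier 13 had a closing promoter peak (0.682%) and 28 a kept one (1.47%). Only 54 of these targets had any late 1-cell DMSO promoter peak, and the 13 made up 24.1% of those. Of all 7050 genes with such a peak 12.2% had a closing one. The strongest closing peak of the 13 targets, of fold 10.8, was shared by Cacng2, a subunit gene of ion channels, and A730060N03Rik. Gm13672 and AC148004.1 followed at 8.14 and 6.70. All 4 genes stood at or under 0.62 FPKM in every library. Of the 13 genes 1 could be tested with TSA and was called higher, beside 11.4% of the 385 Polycomb targets tested and 13.8% of all genes. That gene was Nkx3-2, already counted among the developmental factors above. No closing peak overlapped any of the 17 maternal or 4 paternal imprinting control regions, and kept peaks overlapped 1 maternal region (Impact) and 0 paternal ones. No late 1-cell DMSO peak, closing or kept, lay at the promoters of the 27 H3K27me3 imprinting genes. Of the latter, 4 (14.8%) were the nearest gene of a closing peak, beside 8.21% of protein-coding genes and 5.97% of all genes.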

How the data were processed

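Open chromatin had been profiled by ATAC-seq and RNA by total RNA-seq in mouse embryos, with 2 libraries in each group. Members of the peak set and the gene lists were chosen with earlier results of these data known. Per the labels and the study's methods, reads were trimmed with Trimmomatic 0.39, RNA reads were mapped to GRCm38 with STAR 2.7.8a and RSEM 1.3.1 gave the deposited expected counts and FPKM per gene. The ATAC-seq peaks deposited by the authors are the optimal IDR (reproducible between replicates) peaks of the ENCODE pipeline, 1 list per group over both replicates, in mm10 coordinates. Each line of those deposited lists holds a score, the fold (ratio) of signal over background, and the −log10 p-value (a −log10 q-value was not used). The fold and −log10 columns reported here were the authors' own, so a peak has no replicate error and ATAC-seq depth is unknown.

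Lines at the same position were joined, keeping the highest fold. Overlap meant at least 1 shared base. Start sites came from GENCODE M21, and sequence from RefSeq GRCm38.p6, in windows of 200 bases centred on the summit. Wilson 95% intervals cover counting of peaks only.

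Expected counts were rounded and tested with edgeR 4.0.16 (R 4.3.3; TMM scaling, quasi-likelihood F test, 4 libraries per fit, a minimum of 10 counts in total, Benjamini-Hochberg adjustment over all genes tested). The thresholds were those of the study (adjusted p below 0.05, at least 2-fold, mean FPKM of 1 or more), and applying the FPKM threshold to the group with the higher mean was chosen here. Standard errors are the log2 fold change over the square root of F. On counts simulated from the early 2-cell libraries, 199 of 200 genes changed 4-fold were called, with 0 false calls among 20022 genes. The simulation used a fixed dispersion that was not estimated from these libraries, and changed only genes above a minimum mean count. It therefore does not describe genes of low level, and 59.1% of the 858 genes with a closing promoter peak stood below 1 FPKM in DMSO zygotes. Nothing says that the 2 libraries of a group came from separate collections of embryos, so p-values measure only the spread between these libraries. Whether libraries of different stages were made together is not given in the sources used here, so stage and preparation cannot be told apart.

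Named in the text were the 10 promoter and 10 distal peaks of highest fold, the 3 strongest peaks in and outside the late 1-cell A-485 list, for each RNA comparison up to 5 genes per direction with the largest change (mean FPKM of at least 5, no overlap between groups, no early 2-cell peak within 1 kb of a start site), up to 4 genes per list, the 5 genes nearest to the most peaks, and the peaks at the rule's edge. Replicate numbers do not pair the samples: deviations from the group means of same-numbered libraries correlated at −0.0360 to 0.0653 over the comparisons. The alternatives were DESeq2 1.42.0, other scalings, no filter, a replicate block, leaving out libraries and other overlap and promoter rules. The study's lists of major ZGA and maternal decay genes were not used here, because only part of each was at hand. H3K27ac profiles were not analysed here.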

Additional observations from a re-analysis of the deposited data

How the results depend on the processing

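Closing peaks numbered 3732 when an overlap had to cover 50% of the late 1-cell peak, 3519 when gaps of up to 500 bp counted as shared, and 3933 when the early 2-cell DMSO list was cut to the size of the A-485 list. Without the weakest tertile of late 1-cell peaks there were 2114 closing peaks and 381 at promoters, a smaller count because fewer peaks entered. Restricted to genes with no early 2-cell peak near a start site, calls numbered 105, 72, 14, 89 and 131 in place of 163, 113, 28, 143 and 200 (zygote to early 2-cell, early to late 2-cell, early 2-cell A-485, late 2-cell A-485, TSA), again since fewer genes were counted. In zygotes with A-485, where 0 genes were called, no filter on low counts gave 1 and the replicate block gave 1. Leaving out 1 library gave 0 to 2 there (2 without the second A-485 library) and, in the other comparisons in the same order, 139 to 158, 114 to 119, 26 to 29, 135 to 149 and 187 to 196, and the cause was not tested. Replicate numbers do not pair the libraries, and the replicate block changed no other count by over 1.5 times (165, 117, 32, 147 and 203 calls). Of 396 refits of named genes, 393 kept the call and none reversed. The 3 lost calls were of Gm4782 (DESeq2, and without the first early 2-cell DMSO library) and Gm11889 (without the second late 2-cell A-485 library). Late 2-cell A-485 calls were 77 higher and 71 lower when scaled to total counts, against 63 and 80. ATAC-seq depth is unknown, so weak peaks missed at the early 2-cell stage cannot be told from closed ones.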
